A study of Drosophila melanogaster with 6 samples.

Results

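Gcn5 binding at the Hox genes of Drosophila melanogaster was described from chromatin immunoprecipitation and sequencing (ChIP-seq) peak lists of 2 embryo-derived cell lines, Kc and S2. The members are the peaks that overlap the Antennapedia complex (2.48 to 2.84 Mb of chromosome arm 3R) or the bithorax complex (12.47 to 12.82 Mb of 3R) by at least 1 bp, with positions on build dm3. They were 69 of the 14386 peaks in the 3 lists together. Of these, 26 of 5096 came from Kc cells treated with double-stranded RNA against GFP, the control, and 11 of 4228 from Kc cells treated with double-stranded RNA against CP190. The remaining 32 of 5062 came from S2 cells treated with the GFP RNA. The RNA dose was the same throughout, at 90 µg for every 6000000 cells, and 5 µg of a polyclonal antibody against Gcn5, raised in rabbit, went into each immunoprecipitation. The lists do not measure how much CP190 was left after RNAi. Each condition had 1 library, so no difference below has a replicate check, no test between conditions was possible, and intervals cover counting error only.

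Hox genes encode homeodomain transcription factors that give body segments their identity along the head to tail axis. In Drosophila they lie in a pair of clusters on the right arm of chromosome 3, in roughly the order of the segments they specify. Where a Hox gene is silent, Polycomb group proteins keep it so, and trithorax group proteins sustain the active state. Chromatin boundaries divide the bithorax complex into domains that act independently in different segments, and CP190, a chromatin protein with zinc fingers, is known at several such boundaries together with the insulator protein CTCF. Gcn5 is the histone acetyltransferase of the SAGA and ATAC coactivator complexes. Whether Gcn5 needs CP190 to bind is the question that the title of the series poses.

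The Antennapedia complex holds lab, pb, Dfd and Scr, which act in the head and first thoracic segment, and Antp, which acts in the thorax. The bithorax complex holds Ubx, which specifies the posterior thorax and anterior abdomen, and abd-A and Abd-B, which specify the abdomen. In the RefSeq annotation of Release 6, a later assembly than dm3, the span from lab to Antp holds 19 protein-coding genes, of which 5 are Hox genes and 14 are not. Those 14 include the embryonic patterning genes zen, zen2, bcd and ftz, the cell adhesion gene Ama and 7 Ccp84A cuticle protein genes. The span from Ubx to Abd-B holds 6 protein-coding genes, which are the 3 Hox genes with CG31275, Glut3 and MSAmiP. Its nearest protein-coding neighbours are modSP on the Ubx side and VhaM9.7-d on the Abd-B side. The peak lists name no genes and no dm3 annotation was used here. Peaks are therefore given by position in the window and are not assigned to any of these genes, and the link between each window and its genes rests on the windows' definition.

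Per the submitters' processing notes the build was dm3 and the tools included MACS, a peak caller. Each peak carries the authors' score, which is not on a stated scale and is not normalized between libraries. Scores were compared only within a list, mainly as ranks, where rank 1 is the highest score. The exception is a cutoff of 100 in the closing section, which need not mean the same in each list. Read depth is unknown, and a peak absent from a list is a peak that was not called there. Arm 3R as a whole held 4.001 Kc control, 3.24 Kc CP190 RNAi and 4.05 S2 peaks per 100 kb.

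In the control condition both complexes carried Gcn5 peaks at about the density of the rest of the arm, and after CP190 RNAi they carried fewer. The Antennapedia window held 15 Kc control peaks (exact Poisson 95% interval 8.40 to 24.7), 6 Kc CP190 RNAi peaks (2.20 to 13.1) and 15 S2 peaks (8.40 to 24.7). The bithorax window held 11 Kc control peaks (5.49 to 19.7), 5 Kc CP190 RNAi peaks (1.62 to 11.7) and 17 S2 peaks (9.90 to 27.2). Over both windows these were 3.66 control, 1.55 CP190 RNAi and 4.51 S2 peaks per 100 kb. The covered length followed the same order, with 36.3 kb under control peaks, 15.5 kb under CP190 RNAi peaks and 40.9 kb under S2 peaks.

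Other stretches of 3R of the same size give a scale for these counts. Among 73 other tiles of 360 kb, the median was 15 control peaks and 11 CP190 RNAi peaks, and 65 tiles held at least the 6 CP190 RNAi peaks of the Antennapedia window. Among 75 other tiles of 350 kb, the median was 14 control and 10 CP190 RNAi peaks, and 68 held at least the 5 CP190 RNAi peaks of the bithorax window. The control counts of both windows lay inside the range of the tiles, at the median for the Antennapedia window and below it for the bithorax window.

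**Figure D1:**
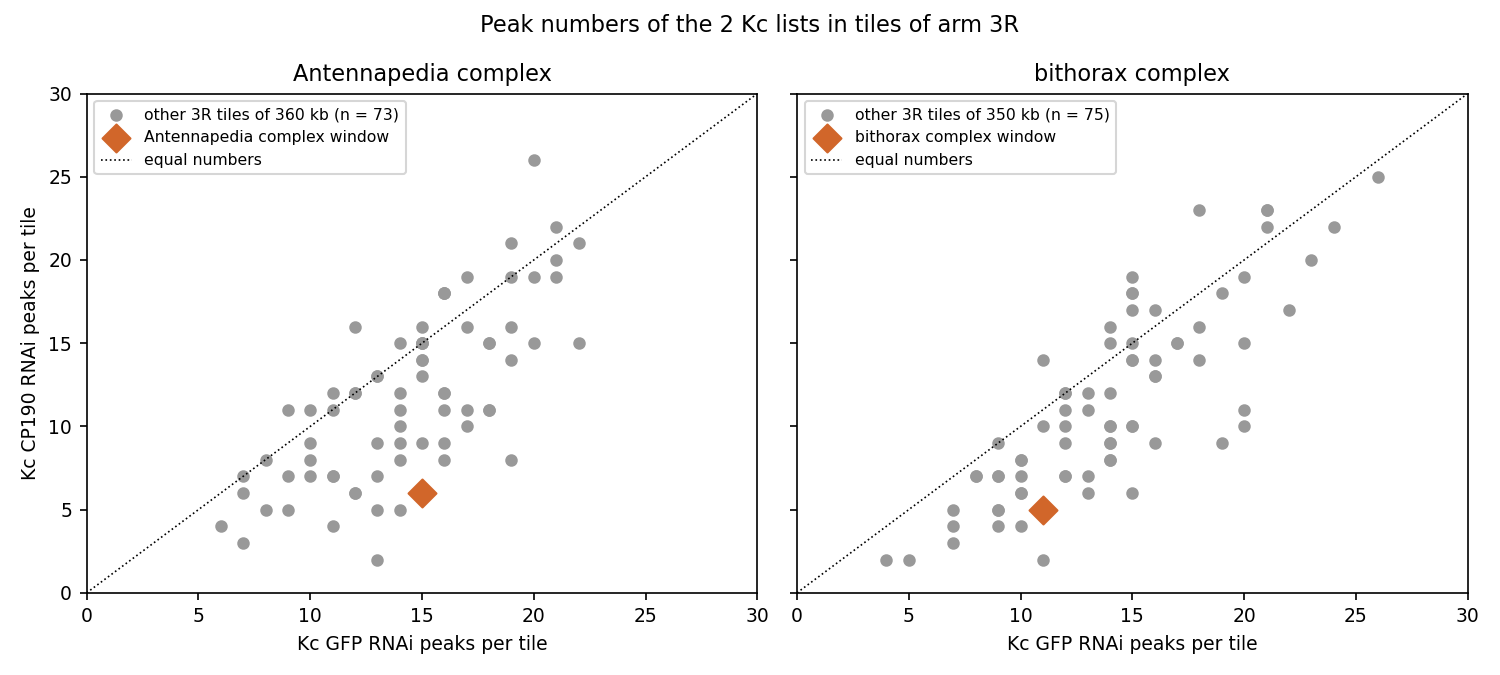
Each grey point is a tile of arm 3R outside the Hox windows, with its number of Kc GFP RNAi peaks on the horizontal axis and of Kc CP190 RNAi peaks on the vertical axis; the diamond is the Hox window and the dotted line marks equal numbers. Both diamonds lie under the line, at 15 against 6 peaks for the Antennapedia complex and 11 against 5 for the bithorax complex, with other tiles above and below them.

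At the lower end of the Antennapedia window, which is the lab side in the gene order, 2 neighbouring sites were called in all 3 libraries. The first lay 3.37 kb inside the edge, at 3R 2482552 to 2484193 in the Kc control. It ranked 1060 of 5096 there (score 282.68), 961 of 4228 after CP190 RNAi (179.64) and 4640 of 5062 in S2 (58.48). The second, at 2485150 to 2486384, ranked 3033 in the control (113.25), 3127 after CP190 RNAi (74.54) and 2383 in S2 (166.53). Both border sites therefore kept a peak after CP190 RNAi, and they ranked 20.8% and 59.5% from the top of the control list. The next peak beyond this edge, 6.84 kb outside it at 2471016 to 2473158, was also called in all 3 libraries.

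The interior of the Antennapedia complex looked different. The next 7 control peaks in a row, from 2508989 to 2633245, had no CP190 RNAi peak, and all 7 had an S2 peak. The strongest lay at 2584839 to 2586076 and ranked 195 in the control (score 598.88) and 252 in S2 (1099.68). The site at 2605369 to 2606580 ranked 219 in the control (575.09) and 146 in S2 (1381.03). These are among the highest-scored 5% of both control lists.

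The other 5 peaks of this run spanned a wide range of scores. The peak at 2531725 to 2532825 ranked 255 in the control (542.71) and 179 in S2 (1271.77), and the peak at 2631866 to 2633245 ranked 270 (530.04) and 193 (1228.9). Those at 2508989 to 2510086 and 2534134 to 2535836 ranked 881 (314.82) and 833 (327.16) in the control, and 838 (529.47) and 359 (920.77) in S2. The weakest, at 2593707 to 2594712, ranked 2573 in the control (138.43) and 2003 in S2 (213.72). After CP190 RNAi the whole stretch from 2486408 to 2644978, 159 kb long, was without a called peak. It was the 30th longest of the 903 intervals between neighbouring CP190 RNAi peaks on 3R, whose median was 10.5 kb.

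Near the middle of the window lay the widest Hox peak of any list, 4823 bp at 2644548 to 2649370 in the control (rank 680, score 359.29). After CP190 RNAi it was met by 2 peaks, at 2644979 to 2646765 (rank 652, score 217.21) and 2646975 to 2649276 (rank 1313, score 152.38). In S2 it was also met by 2 peaks, at 2644597 to 2645734 (rank 1278, score 364.23) and 2648615 to 2649302 (rank 3615, score 88.5). The site was thus called in all 3 libraries, but at unlike extent. Peaks covered 4823 bp of it in the control, 4089 bp after CP190 RNAi and 1826 bp in S2. In S2 the 2 peaks were 2.88 kb apart.

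The upper part of the Antennapedia window mixed kept and missing sites. Control peaks at 2696160 to 2697189 (rank 1192, score 262.44), 2733498 to 2734431 (rank 1048, score 283.79) and 2737533 to 2739149 (rank 228, score 562.77) had no CP190 RNAi peak. All 3 were called in S2, at ranks 408, 1061 and 666. The opposite combination appeared at 2718483 to 2719428, which ranked 3184 in the control (106.91) and 1530 after CP190 RNAi (137.71) and had no S2 peak. From 2739150 to 2826021, a stretch of 86.9 kb, the Kc control list called nothing, and neither other list had a peak wholly inside it.

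The last Antennapedia site, 13.4 kb inside the upper edge at 2826022 to 2827201, was called in Kc cells only. It ranked 4821 in the control (score 55.81) and 1133 after CP190 RNAi (score 166.32), and the nearest S2 peak was 45.7 kb away. The S2 list had a single Antennapedia site that Kc cells lacked, a weak peak at 2679718 to 2680593 (rank 4225, score 68.64). Beyond this edge the nearest peaks were 34.7 kb outside in the control, 22.6 kb in the CP190 RNAi list and 32.9 kb in S2.

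**Figure D2:**
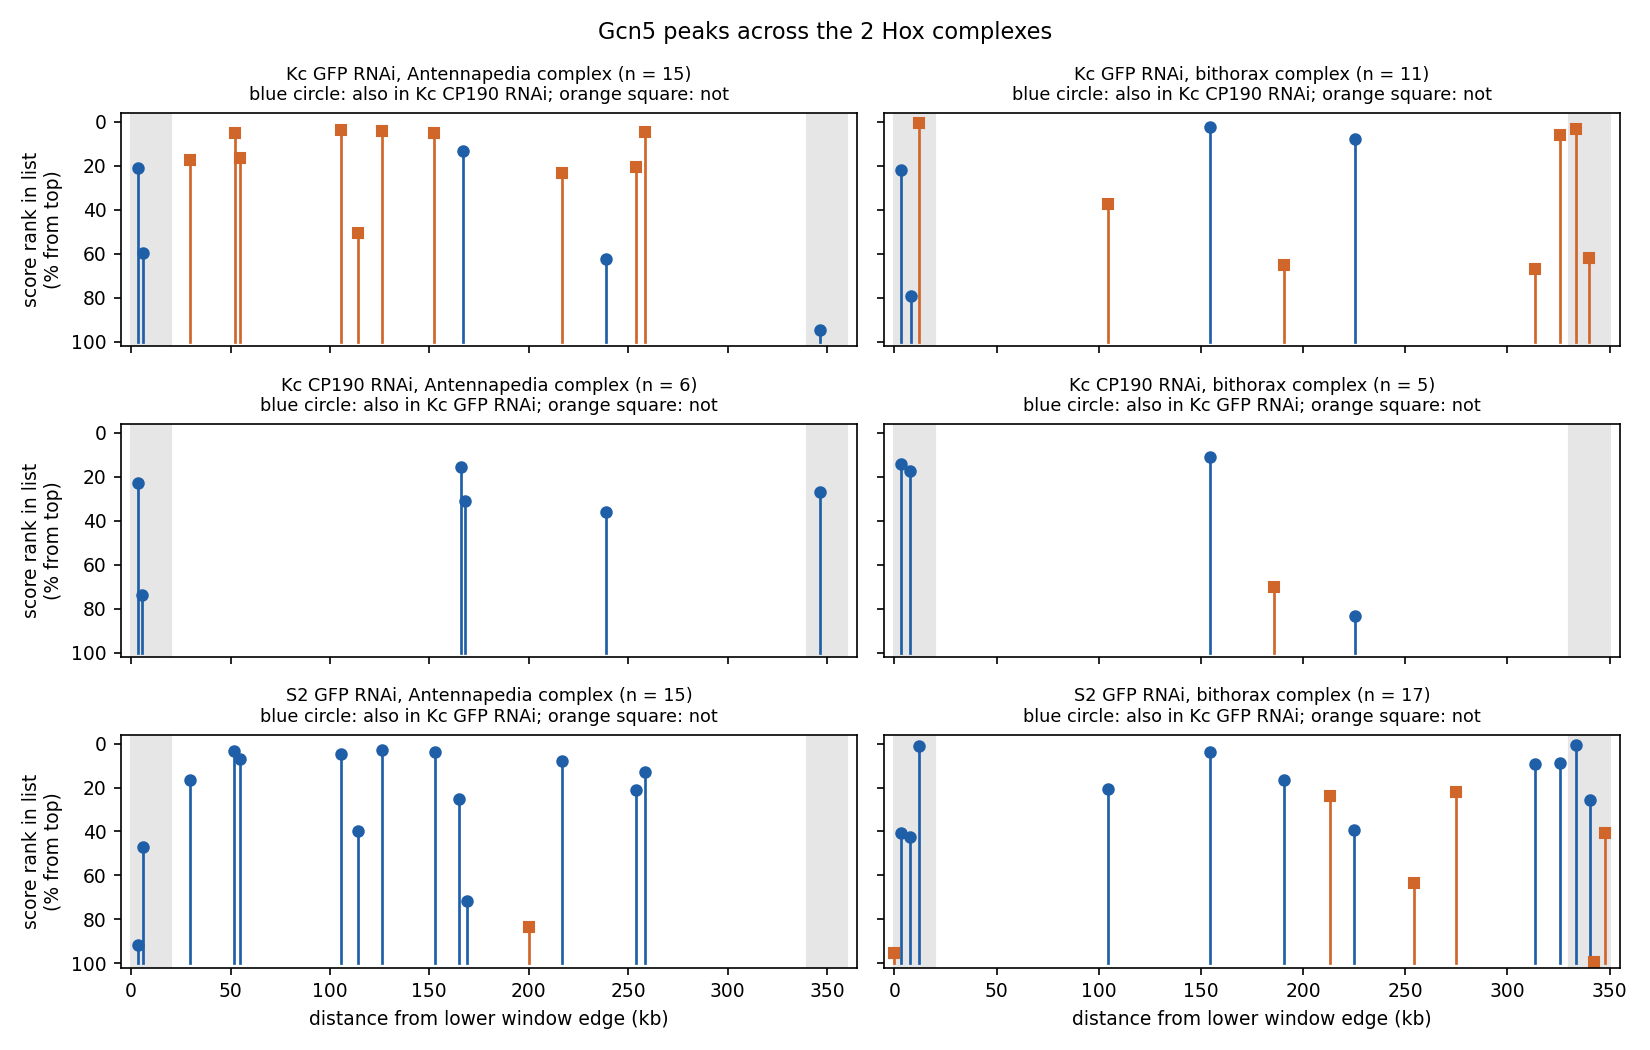
Each stem is a Gcn5 peak, placed by its distance from the lower window edge (kb) and reaching up to its score rank within its own list (percent from the top, so 0 is the highest score); rows are the 3 libraries and columns the 2 complexes. Blue circles mark peaks that overlap a peak of the list named in the panel title and orange squares those that do not, and grey bands are the outer 20 kb of each window. The Kc CP190 RNAi row has 6 and 5 stems against 15 and 11 in the Kc GFP RNAi row.

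The lower border of the bithorax window, on the Ubx side, held the strongest Hox peak of Kc cells next to weaker peaks with another fate. That peak, at 12481017 to 12482620, ranked 19 of 5096 in the control (score 1089.9) and 46 of 5062 in S2 (score 2058.65), and had no CP190 RNAi peak. The nearest CP190 RNAi peak was 2.41 kb away, at 12476584 to 12478609 (rank 736, score 206.45). It overlapped a control peak at 12477426 to 12478533 that ranked only 4035 (score 76.36) and an S2 peak that ranked 2147. The first site in the window, at 12472123 to 12474211, was called in all 3 libraries, at ranks 1126 in the control, 600 after CP190 RNAi and 2066 in S2. Within the outer 20 kb at this end, the site of highest score was therefore missing after CP190 RNAi and both weaker control sites were kept.

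Between the lower border and the middle of the bithorax window peaks were sparse. The Kc control list called nothing from 12482621 to 12573985, or 91.4 kb, and the S2 list nothing from 12482633 to 12573933, or 91.3 kb. The site that ends this stretch, at 12573986 to 12574963, ranked 1905 in the Kc control (185.6) and 1038 in S2 (441) and had no CP190 RNAi peak. In the CP190 RNAi list the empty stretch ran from 12478610 to 12623902, or 145 kb. It was the 35th longest of the 903 intervals of that list on 3R. The control stretch of 91.4 kb was the 52nd longest of 1115.

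Only 2 interior bithorax sites kept a peak, and both were high in the control list. The site at 12623736 to 12625247 ranked 124 in the control (678.79), 473 after CP190 RNAi (247.92) and 186 in S2 (1246.94). The site at 12694550 to 12695744 ranked 401 in the control (452.86), 3520 after CP190 RNAi (63.5) and 1985 in S2 (216.63). Its CP190 RNAi peak was 835 bp wide and lay 83.3% down that list by rank.

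Between these sites lay the 1 Hox peak found only after CP190 RNAi, at 12655642 to 12656300. It was narrow, 659 bp, and ranked 2976 of 4228 (78.91). The nearest control peak, 3.77 kb away at 12660075 to 12661008, had no CP190 RNAi peak, ranked 3314 in the control (101.32) and ranked 830 in S2 (533.91). The 2 sites did not overlap, and no setting used here joined them.

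The upper end of the bithorax window, on the Abd-B side, lacked CP190 RNAi peaks altogether. From 12695583 to 12821351, 126 kb, no peak was called in that list. This was the 50th longest of its 903 intervals on 3R. The control list was also empty over part of it, for 87.4 kb from 12695745 to 12783159. The control list had 4 peaks in this stretch. The peak at 12803117 to 12804415 ranked 157 in the control (631.09) and 39 in S2 (2155.05), and the peak at 12794963 to 12796323 ranked 308 (509.36) and 457 (823.13). The other two, at 12783160 to 12784236 and 12809612 to 12810655, ranked 3405 (97.47) and 3159 (107.67) in the control but 468 (806.67) and 1308 (355.3) in S2. All 4 were thus S2 peaks as well, and 1 of them was the highest-scored Hox peak of S2 cells.

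Just beyond this edge, 1.36 kb outside the window at 12821364 to 12822627, a control peak of rank 3896 was again met by peaks of both other lists. On the opposite side, the control peak 3.60 kb outside the lower edge, at 12464925 to 12466398, was also called in all 3 libraries. The nearest control peak on each side of the bithorax window was thus called in every library, while 7 of its own 11 control sites were missing after CP190 RNAi. Missing peaks were not limited to the window. In the flanking 50 kb, 3 of 5 control peaks on the lower side and 1 of 5 on the upper side had no CP190 RNAi peak.

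Taking both complexes, 17 of 26 control peaks had no CP190 RNAi peak, or 65.4% (exact binomial 95% interval 44.3 to 82.8%). The same rule called 42.2% of the whole control list missing, and 471 of 1090 control peaks on 3R outside the windows (43.2%, 40.2 to 46.2%). The complexes had similar values, with 10 of 15 missing in the Antennapedia window (66.7%, 38.4 to 88.2%) and 7 of 11 in the bithorax window (63.6%, 30.8 to 89.1%). Each complex's own interval includes 42.2%. The comparison was not matched for peak width or for overlap with S2, which are both taken up below. Among other 3R tiles of the same size with at least 10 control peaks, 7 of 64 reached the share of the Antennapedia window and 6 of 62 that of the bithorax window, so such shares also occurred elsewhere on the arm.

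Most missing sites had no CP190 RNAi peak close by. The distance from a missing control peak to the closest CP190 RNAi peak ranged from 2.41 to 58.9 kb with a median of 22.6 kb, and it exceeded 10 kb for 15 of the 17. This distance was not computed for missing control peaks elsewhere, so it cannot be read as particular to the Hox windows. The windows also held few CP190 RNAi peaks. In the other direction, 1 of the 11 CP190 RNAi peaks had no control peak (9.09%, 0.230 to 41.3%), beside 29.6% of the whole CP190 RNAi list. With 11 peaks the interval includes that value.

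**Figure D3:**
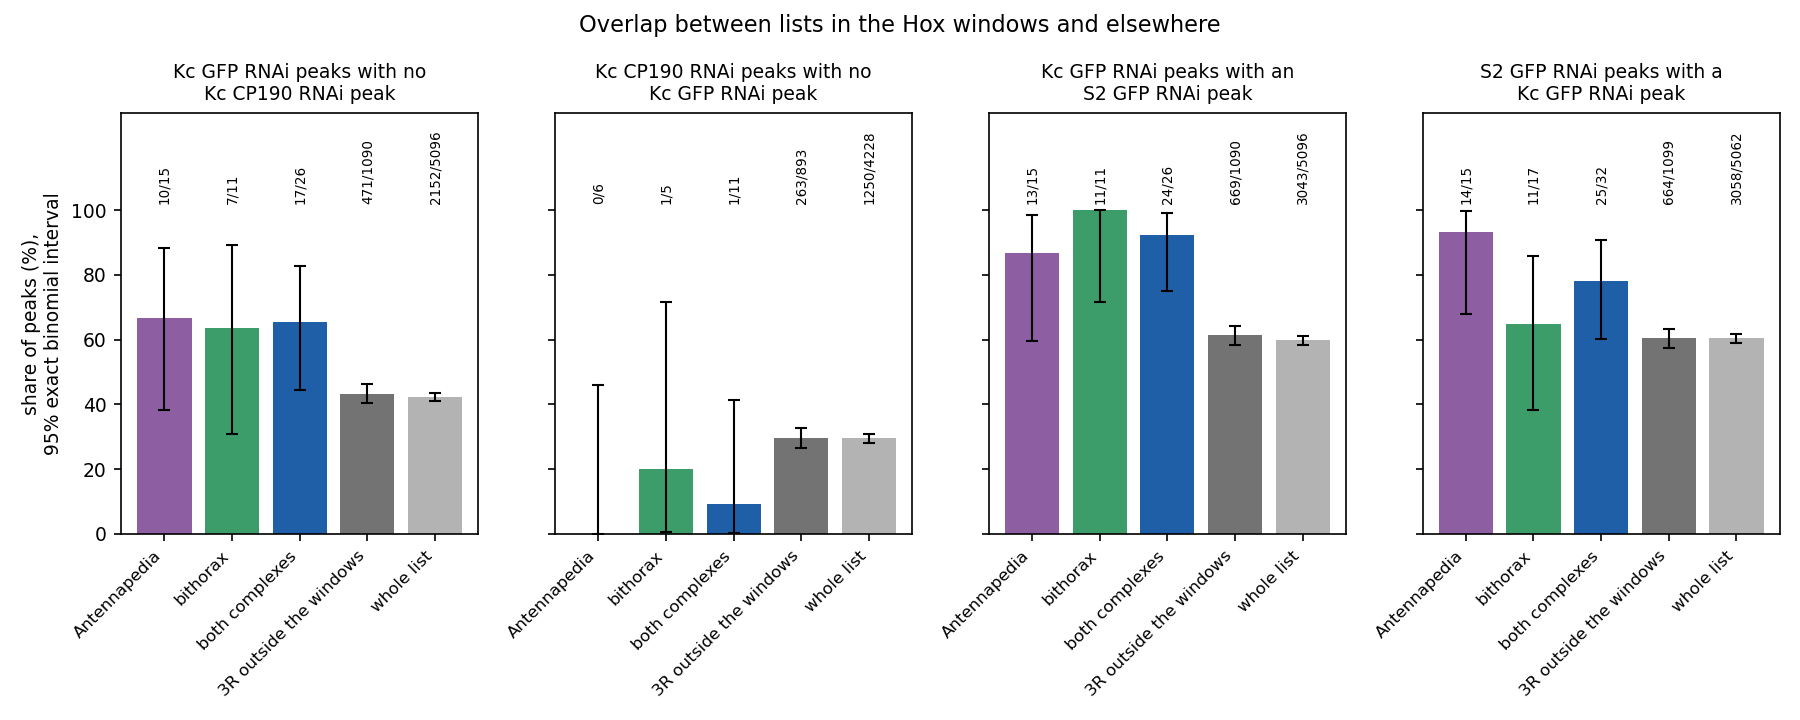
Bars give the share of peaks (percent) that meet the condition in each panel title, for each complex, both together, arm 3R outside the windows and the whole list, with exact binomial 95% intervals and the counts above each bar. In the first panel both complexes together stand at 65.4% and the whole list at 42.2%; in the third they stand at 92.3% and 59.7%.

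Pooled over both windows, interior control peaks were more often missing than border peaks. In the interior, more than 20 kb from either edge, 14 of 18 control peaks were missing after CP190 RNAi (77.8%, 52.4 to 93.6%). In the outer 20 kb zones 3 of 8 were missing (37.5%, 8.52 to 75.5%), and in the flanking 50 kb outside the windows 5 of 12 (41.7%, 15.2 to 72.3%). The intervals overlap, and these groups are too small to separate. The difference was seen mainly in the Antennapedia window, where 10 of 12 interior peaks were missing and all 3 border peaks were kept. In the bithorax window 4 of 6 interior peaks were missing. There the kept border peaks were the lower 2 and the other 3 border peaks were missing.

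Hox control peaks were high in their list. The median rank of the 26 was 18.9% from the top, 10 were in the highest-scored 10% of the list and 13 in the highest 20%. In the highest 10%, 8 of the 10 Hox peaks were missing after CP190 RNAi (80%, 44.4 to 97.5%), against 201 of 471 outside the windows on the major arms, which are 4, X and both arms of chromosomes 2 and 3 (42.7%, 38.2 to 47.3%). In the lower part of the list by score, below its median, 4 of 8 Hox peaks were missing (50%, 15.7 to 84.3%), against 46.6% elsewhere (44.5 to 48.7%). S2 Hox peaks were also high in their own list, with a median rank 21.6% from the top and 11 of 32 in the highest 10%. For the 11 CP190 RNAi Hox peaks the median was 26.8%, and none was in the highest 10% of that list.

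The complexes differed in which peaks were kept. In the Antennapedia window the 5 highest-scored control peaks, with ranks from 195 to 270, were all missing, and kept peaks had a median score of 113.25 against 428.6 for missing ones. In the bithorax window the kept peaks had the higher median, 362.975 against 185.6, because the sites at 12623736 and 12694550 were kept. With 5 and 4 kept peaks these medians are descriptions only.

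Hox control peaks were also slightly narrower, with a median width of 1203.5 bp against 1271 bp in the whole list and 1330 bp on 3R. The S2 Hox peaks were narrower than their list as well (1150 against 1209 bp), but the CP190 RNAi Hox peaks were wider than theirs (1377 against 1307.5 bp). Narrow control peaks were more often missing than wide ones on the major arms, so width moved with the result. Among peaks up to the list's median width, 11 of 16 Hox peaks were missing (68.8%, 41.3 to 89.0%), close to the 63.9% on the major arms outside the windows (61.8 to 65.9%). Among wider peaks 6 of 10 Hox peaks were missing (60%, 26.2 to 87.8%), against 24.7% outside (23.0 to 26.4%). This Hox interval does not include the outside value, but it takes neighbouring peaks as independent. The wider class was also not matched for width. Missing Hox peaks were at most 1703 bp wide, while peaks outside the windows reached 7706 bp among missing and 8930 bp among kept ones. Overlap with S2 moved with the result too. On the major arms outside the windows, 48.1% of S2-shared control peaks lacked a CP190 RNAi peak, against 33.4% of the rest. S2 shared 24 of the 26 Hox peaks, and 17 of these were missing (70.8%, 48.9 to 87.4%). Among S2-shared peaks up to the median width it was 11 of 14 Hox peaks (78.6%, 49.2 to 95.3%), close to 72.6% outside. Among wider S2-shared peaks it was 6 of 10 (60%), against 26.8% outside. The parts of width and S2 overlap in the overall share were not tested further.

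**Figure D4:**
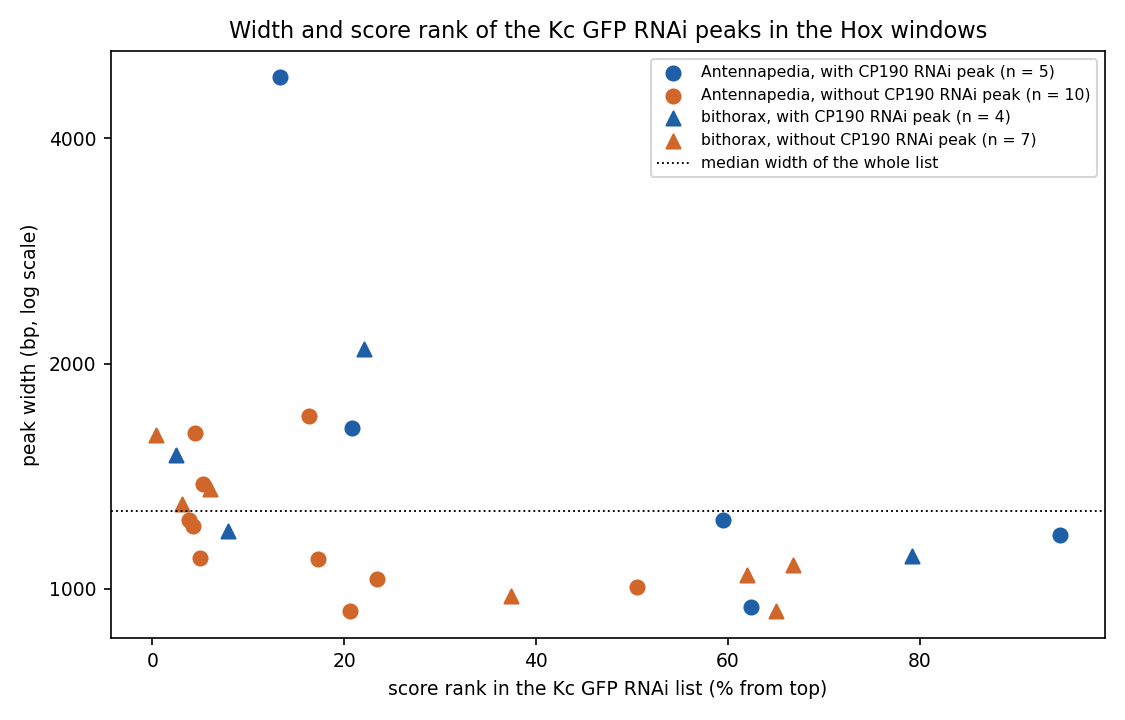
Each symbol is a Kc GFP RNAi peak in the Hox windows, with its score rank (percent from the top of the list) on the horizontal axis and its width (bp, log scale) on the vertical axis; circles are the Antennapedia and triangles the bithorax complex, and orange marks peaks without a CP190 RNAi peak. The dotted line is the median width of the whole list, 1271 bp; 10 of the 26 symbols lie above it, of which 6 are orange.

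Kc and S2 cells shared most Hox sites. Of the 26 Kc control peaks, 24 overlapped an S2 peak (92.3%, 74.9 to 99.1%), against 59.7% of the whole list and 61.4% of control peaks on 3R outside the windows (58.4 to 64.3%). In the bithorax window it was 11 of 11, and in the Antennapedia window 13 of 15. The 2 exceptions, at 2718483 and 2826022, both kept a CP190 RNAi peak. Shared sites lay close together, with a median distance of 66 bp between the Kc and S2 peak centres and 21 of 24 within 250 bp. This was also so on 3R outside the windows, where the median was 89 bp and 510 of 669 were within 250 bp.

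Counted from S2, 25 of 32 Hox peaks overlapped a Kc control peak (78.1%, 60.03 to 90.7%), beside 60.4% of the whole S2 list. The interval includes the share of the list. The share was 14 of 15 in the Antennapedia window (93.3%). In the bithorax window it was 11 of 17 (64.7%), near that of the list. The 6 bithorax peaks without a Kc control peak included 3 in the interior, at 12682508 to 12683424 (rank 1217, score 379.44), 12723873 to 12724742 (rank 3200, score 107.97) and 12744516 to 12745461 (rank 1125, score 403.05). They lay 11.1, 28.1 and 37.7 kb from the nearest Kc control peak. The first lay below the kept site at 12694550, and the other two between that site and the control peaks of the Abd-B side. The other 3 were border peaks, at 12468977 to 12470176 (rank 4825), which reaches over the lower edge, at 12810723 to 12813806 (rank 5034, only 67 bp beyond a Kc peak), and at 12817139 to 12818320 (rank 2057).

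Fewer S2 Hox peaks met the Kc CP190 RNAi list than the Kc control list. Of the 32, 8 did (25.0%, 11.5 to 43.4%), beside 37.0% of the whole S2 list. The whole S2 list fell likewise, as 60.4% of it met the control list. Of the 11 CP190 RNAi peaks, 8 overlapped an S2 peak (72.7%, 39.0 to 94.0%), beside 44.6% of that list. Both Hox intervals include the share of the list beside them. The S2 peak list names its sequences differently from the Kc lists, and whether its processing also differed cannot be told apart from an effect of the cell line.

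Chaining overlapping peaks of all 3 lists gave 34 Hox sites, 16 in the Antennapedia and 18 in the bithorax window. The most frequent pattern was a site called in both control libraries and not after CP190 RNAi, with 17 of 34 sites (50%, 32.4 to 67.6%). On 3R as a whole this pattern made up 338 of 1731 sites (19.5%, 17.7 to 21.5%), and in the whole series 17.8%. Sites called in all 3 libraries numbered 7 (20.6%, 8.70 to 37.9%), close to the 19.6% of the whole series. A further 7 were called in S2 only (20.6%), near the 21.6% of the whole series. Another 2 were called in both Kc libraries only (5.88%, 0.720 to 19.7%), beside 16.8% of the series. The remaining 1 was called after CP190 RNAi only (2.94%, 0.0744 to 15.3%), beside 11.99%. Each of these Hox intervals includes the share of the series. No Hox site was called in the Kc control alone (0 of 34, exact upper limit 10.3%), a pattern that made up 8.72% of all sites.

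The comparison of the Kc lists and the comparison of the cell lines share the Kc control list, so the 3-way patterns describe these lists and are no independent support for either comparison. All 17 Hox control peaks without a CP190 RNAi peak were met by an S2 peak (100%, 80.5 to 100%). On the major arms outside the windows 1431 of 1980 such peaks were (72.3%, 70.2 to 74.2%). Of the other Hox control peaks, 7 were called in all lists by definition of that group, and 2 in Kc cells only.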

How the data were processed

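The authors deposited 1 peak list for each Gcn5 library, giving position, name and score of every peak. Per the submitters' processing notes reads and peaks were handled with Bowtie, MACS, HOMER and bedtools on build dm3. How inputs were used, the threshold for peaks and tool versions were not given in the sources used here. Matching inputs, 3 libraries, were not analysed here. The score is the authors' value per peak, with no stated scale. Prefixes of sequence names were removed and positions made 1-based. Peaks were shared at an overlap of at least 1 bp. Intervals are exact (Clopper-Pearson for shares, Poisson for counts, 95%). Tiles of 3R started at its first base and ended at the farthest peak; tiles touching a window were left out, and peaks were placed by their centres. All sites in the windows were named. The members, windows and summaries were chosen with earlier results of these data known. Overlap counting was checked on simulated lists. Python 3.11.15, pandas 2.3.3 and SciPy 1.17.1 were used. Without dm3 sequence or annotation, no gene or sequence was assigned to a peak. Alternatives are given in the closing section.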

Additional observations from a re-analysis of the deposited data

How the results depend on the processing

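Of 64 values recomputed under other settings, 61 stayed within the interval of the reported share or within 1.5 times the reported count. The 3 that moved were all counts in the bithorax window. Widening it by 50 kb on each side gave 21 Kc control peaks and 11 CP190 RNAi peaks, and a score of 100 or more left 3 CP190 RNAi peaks. Share intervals are wide with so few peaks, so staying within them is a weak check. Cutting the lists to equal length could not change the CP190 RNAi counts, because that list set the length of 4228. The missing share of Hox control peaks ranged from 65.4% to 78.3%, and stayed above the share of the whole list under each overlap rule, score and list-length setting. It was 73.1% with centres within 250 bp, against 50.5% of the whole list, and 78.3% with both lists at a score of 100 or more, against 54.5%. The share of CP190 RNAi Hox peaks without a control peak ranged from 9.09% to 36.4%, so 1 to 4 peaks. Border zones of 10 kb and 30 kb, chosen after seeing the data, gave interior missing shares of 76.2% and 75.0% and border shares of 20% and 50%. No paired analysis was possible because there is a single library for every condition, and no library could be left out. Read depth is unknown and limits every statement on a peak that was not called.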
